A study of Mus musculus with 12 samples.

Results

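A set of 10 genes of glutathione turnover were followed across 12 mouse rhabdomyosarcoma tumors: *Chac1*, *Chac2*, *Ggct* and *Oplah*, which act in the breakdown of glutathione, *Gclc*, *Gclm* and *Gss*, which make it, *Slc7a11*, which imports the cystine for it, *Gsr*, which recycles it, and *Gpx4*, which uses it. *Chac1* was taken because of its values in the treatment comparisons of these same tumors, so its differences between groups are given as a description without a test. The other 9 genes were taken for their function. These 10 genes were found by symbol among the 38894 genes summed from the transcript files, and all 10 were among the 17599 genes with enough reads to be tested.

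Rd76-9 cells, a murine embryonal rhabdomyosarcoma line, were injected into the flank of WT C57/Bl6J mice, and tumors were collected at day 16 for poly-A RNA-seq. The 4 groups of 3 tumors received vehicle, vincristine (VCR, 0.25 mg/kg), the FOXM1 inhibitor RCM1 (8 µg) carried in folic acid-linked nanoparticles (RCM1-NPFA), or VCR + RCM1-NPFA. Vehicle was described as empty nanoparticles with saline, although the sample labels of these tumors also name the RCM1 nanoparticle. Tumors are named m1 to m3 (vehicle), m4 to m6 (VCR), m7 to m9 (RCM1-NPFA) and m10 to m12 (VCR + RCM1-NPFA). All 12 grew from 1 cell line, neither batch nor sex of the mice is given in the labels, and each group had only 3 tumors, so error estimates rest on few samples.

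Glutathione is a tripeptide of glutamate, cysteine and glycine and the most abundant small thiol of the cell. The ligase formed by GCLC and GCLM joins glutamate to cysteine, glutathione synthetase adds glycine, and the supply of cysteine, imported as cystine by the SLC7A11 and SLC3A2 exchanger, often limits the rate. Inside the cell CHAC1 and CHAC2 cleave glutathione to 5-oxoproline and a cysteine-glycine dipeptide, and *Chac1* is a well known target of the stress-induced transcription factor ATF4.

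The depth was even, at 29342195 to 32108055 estimated reads per tumor (median 31292764). Of the muscle lineage markers of rhabdomyosarcoma, *Myf5* was at 48.9 to 69.9 CPM (read counts scaled to library size) and *Cdh15* at 125 to 202 CPM in all 12 tumors. *Myod1* and *Myog*, the factors by which such tumors are usually recognized, were at 0 to 2.38 and 0 to 2.16 CPM, and *Pax7* at no more than 0.19 CPM. *Myod1* was at 0 to 0.031 CPM with vehicle, 1.20 to 2.38 with VCR, 0 to 2.30 with RCM1-NPFA and 0.448 to 0.712 with both. *Myog* was at 0 to 0.062, 1.43 to 2.16, 0 to 0.976 and 0.487 to 1.63 CPM in the same order. *Des* was at 7.76 to 11.4, 135 to 429, 11.7 to 573 and 55.0 to 201 CPM. *Chrna1* was at 2.53 to 9.03 and *Chrng* at 0.309 to 1.02 CPM over all tumors. RNA of adult muscle fibres differed widely, the summed level of its 22 markers running from 313 to 456 CPM in vehicle-treated tumors, 2297 to 14835 CPM with VCR, 421 to 22262 CPM with RCM1-NPFA and 848 to 5750 CPM with both. m5 and m9 held the most. None of the 22 markers was at 0 in all vehicle-treated tumors, and the part of this muscle RNA in the results below was not tested. Values without m5 and m9 are given, but m4 and m6 still held more muscle RNA than any vehicle-treated tumor. In bulk RNA, fewer cells of a type and less RNA per cell cannot be told apart.

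Promoter sequences are shown first for the pair of genes that carried the same 8-letter motif, the composite site TGATGCAA known to be bound by ATF4 with C/EBP proteins. Promoters of 300 bases, from 250 before to 50 after each RefSeq gene start (GRCm38), were available for 7 of the 10 genes. The motif, read on both strands, was in 294 of 32851 promoters (0.895%), and among the 7 it was in those of *Chac1* and *Slc7a11*. The stretch for *Chac1*, chr2:119350992-119351191 on the plus strand, and the one for *Slc7a11*, chr3:50443641-50443691 on the minus strand, are written 5′ to 3′ with the motifs in capitals.
Chac1: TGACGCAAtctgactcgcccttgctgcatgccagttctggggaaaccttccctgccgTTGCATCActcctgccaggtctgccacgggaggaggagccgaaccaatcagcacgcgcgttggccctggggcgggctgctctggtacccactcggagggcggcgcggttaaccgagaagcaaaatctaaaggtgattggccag
Slc7a11: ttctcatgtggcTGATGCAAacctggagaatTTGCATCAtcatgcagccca

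The *Chac1* stretch holds the motif on the opposite strand, TTGCATCA, 193 to 186 bases before the start. It also holds the one-base variant TGACGCAA 250 to 243 bases before the start, a motif found in 161 promoters (0.490%). *Slc7a11* carried the TGATGCAA motif in both orientations, 66 to 59 and 47 to 40 bases before its start. Of 26 promoters of a list of ATF4 and its targets, 5 held TGATGCAA (*Atf3*, *Nupr1*, *Pycr1*, *Slc7a11* and *Vldlr*). The core of the antioxidant response element, TGACNNNGC, to which NRF2 binds, was much more common, in 4071 promoters (12.4%), and was found in those of *Gclm* and *Ggct*. These matches describe letters and not binding. The *Slc7a11* start behind its window lies inside the span annotated for the gene, chr3:50364936-50499087, and not at its end.

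Levels of different genes were compared in TPM (transcript share of a library, per length). *Gpx4*, the selenoenzyme that reduces lipid peroxides with glutathione, was the most abundant at a median of 601 TPM (529 to 711), above 99.5% of all genes. *Gsr*, glutathione reductase, followed at 63.7 TPM and *Gclm*, the modifier subunit of the ligase, at 46.7 TPM. *Gclc*, the catalytic subunit, was at 18.4 TPM and *Gss*, glutathione synthetase, at 15.8 TPM.

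*Chac1* took the sixth place with a median of 13.3 TPM, and *Chac2*, its less inducible paralog, the next with 10.6 TPM. *Ggct*, the cyclotransferase that acts on gamma-glutamyl amino acids, had 4.58 TPM, and *Oplah*, the oxoprolinase that turns 5-oxoproline back into glutamate, 1.35 TPM. *Slc7a11* was lowest at 0.699 TPM. In 5 of the 9 neighbouring pairs of this order the higher gene was above the lower in all 12 tumors with ranges that did not overlap, while *Gclc* and *Gss*, *Gss* and *Chac1*, *Chac1* and *Chac2*, and *Oplah* and *Slc7a11* overlapped.

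The spread among tumors was widest for *Chac1*. It ran from 7.73 TPM in m12 to 32.5 TPM in m3, a 4.20-fold range, against 1.17-fold for *Gclm* and 1.20-fold for *Chac2*. *Slc7a11* had a 3.01-fold range on few reads, and the remaining genes stayed between 1.29-fold and 1.99-fold. The coefficient of variation between tumors within groups that edgeR estimated, beyond counting noise, was 0.32 for *Chac1*, higher than for 87.4% of tested genes, and 0.29 for *Slc7a11*, while *Gclm* at 0.090 was lower than most genes.

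**Figure D1:**
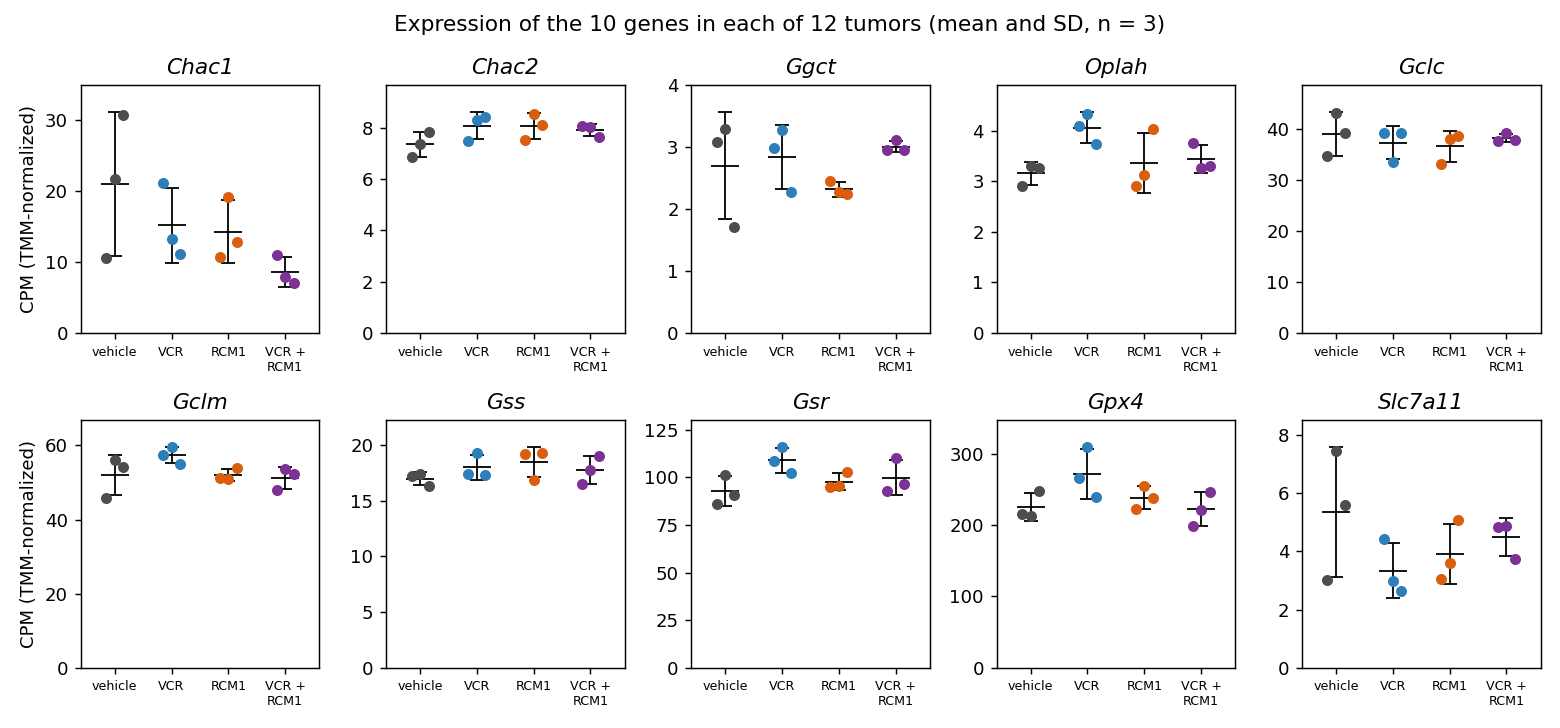
Each panel plots 1 gene, with TMM-normalized CPM on an axis from 0 and 1 point per tumor in the 4 groups, with bars for the mean and SD (n = 3). The vehicle-treated tumors spread from 10.5 to 30.7 CPM in *Chac1*, whereas the groups of *Gclc*, *Gss* and *Chac2* lie at nearly the same height.

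*Chac1*, at chr2:119351242-119354326 and with 1 transcript in these files, was read at 10.5, 21.7 and 30.7 CPM in the vehicle-treated tumors. It was at 21.2, 13.2 and 11.2 CPM with VCR, at 10.7, 19.2 and 12.8 CPM with RCM1-NPFA, and at 10.9, 7.83 and 7.01 CPM with VCR + RCM1-NPFA. The 2 lowest of all 12 tumors, m12 and m11, had received both drugs and the 2 highest, m3 and m2, vehicle, but vehicle tumor m1 lay below the combination tumor m10, so the groups overlapped. Every group held tumors near 11 CPM.

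The description of *Chac1* on the log2 scale leaned on m3. Relative to vehicle it was at -0.46 (SE 0.37) with VCR, -0.56 (SE 0.37) with RCM1-NPFA and -1.28 (SE 0.37) with both. Without m3 these values were -0.08, -0.18 and -0.90, and without m1 they were -0.78, -0.88 and -1.61. Without m5 and m9 they were -0.38, -0.49 and -1.29. The combination stood at -0.82 (SE 0.37) relative to VCR and -0.73 (SE 0.37) relative to RCM1-NPFA, and the value of the combination beyond the sum of both drugs was -0.26 (SE 0.52), smaller than its standard error.

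*Chac2* kept to a narrow range. It was at 6.85, 7.36 and 7.83 CPM in vehicle-treated tumors and between 7.46 and 8.52 CPM in the other 9, with a log2 difference of 0.11 (SE 0.12) for the combination and a 95% interval from -0.15 to 0.36 in edgeR. The ratio of *Chac1* to *Chac2* TPM was 1.25, 2.40 and 3.18 in vehicle-treated tumors and 1.10, 0.795 and 0.748 with VCR + RCM1-NPFA. *Chac1* exceeded *Chac2* in 10 of 12 tumors, and the exceptions were m11 and m12. *Chac2* lies wholly within the bounds of *Asb3*. Its estimated counts summed to a whole number in each of the 12 tumors (219 to 267), so no split of reads with another gene was seen.

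*Ggct* and *Oplah* complete the breakdown genes. *Ggct* was at 3.09, 3.29 and 1.71 CPM with vehicle, at 2.98, 3.28 and 2.27 CPM with VCR, at 2.45, 2.27 and 2.23 CPM with RCM1-NPFA and at 2.95, 3.11 and 2.95 CPM with both. The tumor with the most *Chac1*, m3, had the least *Ggct*. All 3 combination tumors were above the 3 RCM1-NPFA tumors, by 0.37 (SE 0.24) on the log2 scale, but edgeR gave an adjusted p of 1.00, and 5.88% of all genes had groups that did not overlap in that comparison.

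*Oplah* was read at 2.90, 3.29 and 3.26 CPM with vehicle and at 4.09, 4.33 and 3.74 CPM with VCR. All 3 VCR-treated tumors were above the vehicle-treated ones, which was also true, in either direction, of 24.4% of all genes. The difference was 0.36 (SE 0.16) on the log2 scale with an edgeR adjusted p of 0.221. With RCM1-NPFA it was at 2.91, 3.13 and 4.03 CPM and with both drugs at 3.75, 3.27 and 3.30 CPM, overlapping vehicle in each case. The gene shares stretches with *Smpd5* and *Exosc4*, and its reads were divided among 7 transcripts.

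The synthesis genes differed little between groups. *Gclc* averaged 38.9 ± 4.21 CPM with vehicle, 37.2 ± 3.25 with VCR, 36.5 ± 3.03 with RCM1-NPFA and 38.2 ± 0.866 with both (SD, n = 3). *Gss*, whose span is largely shared with the noncoding *Gssos2*, averaged 17.0 ± 0.591, 18.0 ± 1.12, 18.4 ± 1.35 and 17.7 ± 1.24 CPM in the same order. Their differences for the combination had 95% intervals from -0.25 to 0.19 and from -0.14 to 0.27 on the log2 scale in edgeR, so changes of *Gclc* beyond 0.843-fold to 1.14-fold lay outside the interval.

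*Gclm* was at 45.8, 56.0 and 54.1 CPM with vehicle, 57.4, 59.5 and 55.1 CPM with VCR, and 47.9, 53.7 and 52.3 CPM with VCR + RCM1-NPFA. In CPM the combination tumors all lay below the VCR-treated ones, by 0.16 (SE 0.081) on the log2 scale, with an edgeR adjusted p of 0.855. Of all genes, 12.9% had non-overlapping groups there. The groups overlapped in TPM, with combination tumor m11 at 48.9 and VCR tumor m4 at 47.3. In TPM the modifier exceeded the catalytic subunit in every tumor, by 2.18-fold to 3.14-fold, and this ratio averaged 2.38 ± 0.156 with vehicle and 2.41 ± 0.199 with both drugs (SD, n = 3).

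*Slc7a11* was read at 3.02, 7.46 and 5.58 CPM with vehicle, 4.41, 2.98 and 2.63 CPM with VCR, 3.05, 3.61 and 5.07 CPM with RCM1-NPFA, and 4.84, 4.89 and 3.75 CPM with VCR + RCM1-NPFA. As for *Chac1*, m2 and m3 were the highest tumors and m1 was among the low ones. The groups overlapped, and the VCR difference of -0.68 (SE 0.32) had an edgeR adjusted p of 0.239, and ran from -0.96 without m1 to -0.38 without m2. Unlike *Chac1*, *Slc7a11* was not lowest in the combination, where its difference of -0.25 (SE 0.32) had a 95% interval from -0.95 to 0.45. The assignment of its reads to 5 transcripts was unstable, its main transcript taking between 0 and 100% of a tumor's estimated reads.

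The heavy chain partner of SLC7A11, encoded by *Slc3a2*, was far more abundant, at 150 to 225 TPM. The *Slc3a2* level was 145 to 361 times that of *Slc7a11*, and the protein also pairs with other amino acid transporters. It was at 188, 261 and 306 CPM with vehicle and 214, 206 and 220 CPM with both drugs, the combination being within the vehicle range. The difference of -0.24 (SE 0.15) had an edgeR adjusted p of 0.745.

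*Gsr* was at 86.3, 101 and 90.6 CPM with vehicle and 109, 116 and 102 CPM with VCR. In CPM the VCR-treated tumors all lay above the vehicle-treated ones, and 24.4% of all genes had non-overlapping groups there. In TPM vehicle tumor m2 (66.8) was above m4 and m6 (65.8 and 65.5). The difference was 0.23 (SE 0.086) on the log2 scale, with the smallest adjusted p of the 9 genes (0.155, edgeR). RCM1-NPFA gave 94.9, 95.4 and 103 CPM, and both drugs 92.9, 110 and 96.4 CPM, both overlapping vehicle. In all of *Oplah*, *Gsr*, *Gclm* and *Gpx4* the highest tumor in CPM was m5. In TPM m5 was highest only for *Gpx4*, and m9, m11 and m2 were highest for *Oplah*, *Gsr* and *Gclm*. Without m5 and m9 the VCR differences were 0.31 for *Oplah*, 0.18 for *Gsr* and 0.16 for *Gpx4*, with edgeR adjusted p of 0.510, 0.502 and 0.607.

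*Gpx4* was at 215, 212 and 248 CPM with vehicle and 266, 309 and 240 CPM with VCR, with overlap between m3 and m6. The difference was 0.27 (SE 0.11), with an edgeR adjusted p of 0.189. Tumors given RCM1-NPFA had 222, 255 and 238 CPM and those given both drugs 198, 222 and 247 CPM. The combination was below VCR by 0.29 (SE 0.11) on the log2 scale (edgeR adjusted p = 0.855), and the interaction of both drugs was -0.37 (SE 0.16) with an edgeR adjusted p of 0.340. Of its 4 transcripts, NM_001367995.1 held 88.8 to 92.6% of the estimated reads in every tumor.

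Counted over the 9 genes other than *Chac1*, none passed an adjusted p of 0.1 in edgeR in any of 6 comparisons or in the joint test of the 4 groups. VCR against vehicle was the only comparison with called genes at all, 975 of 17599 (5.54%), against 0% for RCM1-NPFA, for the combination against vehicle, against VCR or against RCM1-NPFA, and for the interaction. These shares were not stable to single tumors. Without m2, m4 or m5 the VCR count was 0, without m11 it was 1 and without m6 it was 1998, and without m9 the combination had 44 genes. At an unadjusted p under 0.05, 3 of the 9 were counted for VCR (*Gsr*, *Gpx4* and *Oplah*), beside 22.1% of all genes. RCM1-NPFA and the combination had 0 of the 9, beside 9.78% and 7.3% of all genes, and the combination against VCR and the interaction had 1 each (*Gpx4*), beside 5.26% and 13.8%. The combination against RCM1-NPFA had 0, beside 2.07%. DESeq2 also called 0 of the 9 in each comparison, where it called 13.5% of all genes for VCR, 1.5% for RCM1-NPFA, 0.37% for the combination, 2.78% for the interaction and 3.9% in the joint test of the 4 groups. Without m5 and m9, the 2 tumors with the most muscle RNA, edgeR again called 0 of the 9, with 138 of 17867 genes (0.772%) called for the combination against vehicle and 253 (1.42%) for VCR.

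**Figure D2:**
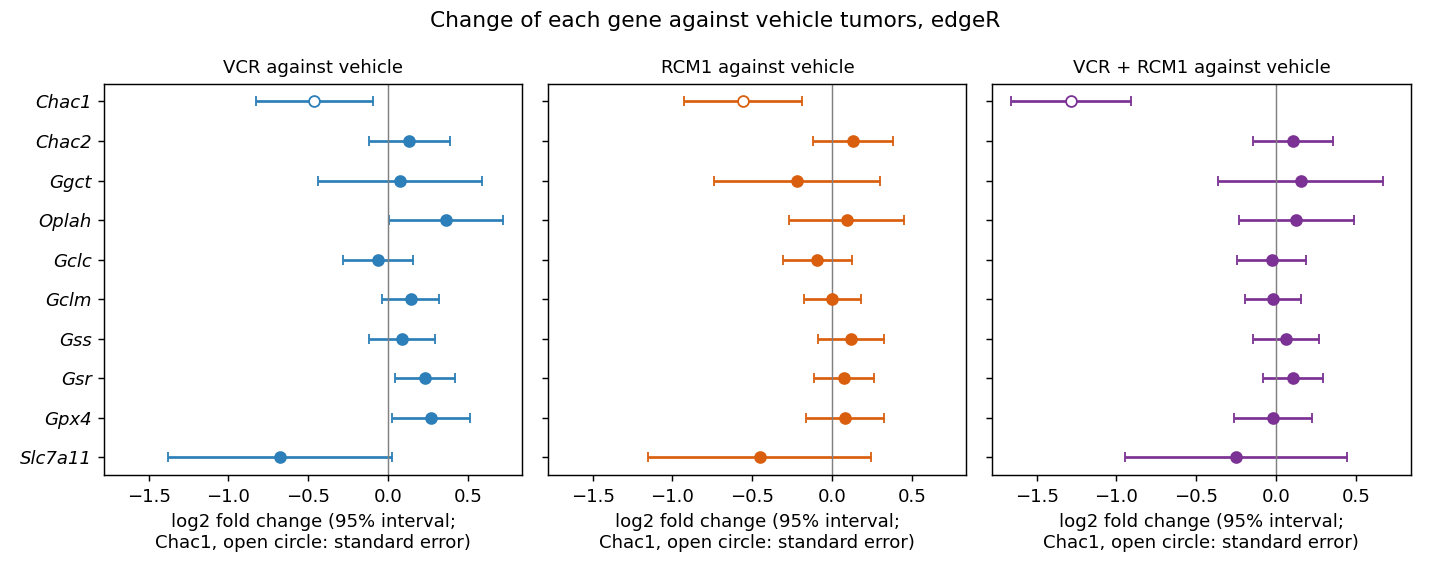
Log2 fold changes of the 10 genes against vehicle are plotted for VCR, RCM1-NPFA and VCR + RCM1-NPFA, with 95% intervals of the edgeR fit for 9 genes and the standard error only for *Chac1* (open circle). For the combination the 9 filled points lie between -0.25 and 0.15, and *Chac1* lies at -1.28.

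Whether the other genes varied with *Chac1* from tumor to tumor was then compared on log2(CPM + 0.1). Since *Chac1* was taken for its group differences, r and rho over all 12 tumors are given as a description, and the test was a two-sided exact permutation within groups after each group's mean was subtracted, whose smallest p is 0.000772. None of the 9 genes passed an adjusted p of 0.05. *Slc7a11* had r = 0.45 and rho = 0.37 over all tumors, with r = 0.01 without m2 and m3. Within groups it had r = 0.71 and rho = 0.78 (exact permutation p = 0.0795 and 0.037, adjusted over 9 relations 0.358 and 0.333), and it was positively related to *Chac1* in each of the 4 groups.

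*Gss* had r = -0.48 and rho = -0.29 over all tumors, and within groups r = -0.58 and rho = -0.53 (exact permutation p = 0.0586 and 0.106, adjusted 0.358 and 0.476), negative in each group. *Gclm* had r = 0.34 and the highest rho of the 9 over all tumors, 0.57, but within groups r = 0.41 and rho = 0.37 (exact permutation p = 0.486 and 0.386). *Ggct* had r = -0.43 and rho = -0.15, and within groups an exact permutation p of 0.574 for r. *Chac2* had r = 0.01 and rho = 0.08. For the remaining *Oplah*, *Gclc*, *Gsr* and *Gpx4*, r over all tumors was between -0.07 and 0.37 and rho between 0.06 and 0.46.

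Of the stress regulators of *Chac1* and their targets, 3 gave closer relations. *Atf4* was read at 319, 424 and 496 CPM with vehicle, 393, 395 and 339 CPM with VCR, 344, 396 and 337 CPM with RCM1-NPFA, and 346, 329 and 306 CPM with both. Its highest and lowest tumors, m3 and m12, were also those of *Chac1*. Over the 12 tumors r was 0.93 and rho 0.91, and r was 0.87 without m2 and m3. Within groups r was 0.92 and rho 0.87 (exact permutation p = 0.00309 and 0.01, adjusted over 6 relations 0.0108 and 0.0301).

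*Trib3*, a pseudokinase induced by ATF4, had r = 0.87 and rho = 0.80 with *Chac1*, and r = 0.71 without m2 and m3. Its values within groups were 0.90 and 0.90 (exact permutation p = 0.00386 and 0.00617, adjusted 0.0108 and 0.0301). *Slc3a2*, the transporter chain described above, had r = 0.83 and rho = 0.83, and r = 0.64 without those tumors. Within groups it had r = 0.90 and rho = 0.85 (exact permutation p = 0.0054 and 0.017, adjusted 0.0108 and 0.034).

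The other 3 did not pass. *Ddit3*, which encodes the stress transcription factor CHOP, had r = 0.80 and rho = 0.73 over all tumors, r = 0.56 without m2 and m3, and r = 0.78 within groups (exact permutation p = 0.0532, adjusted 0.0799). *Asns*, asparagine synthetase and another ATF4 target, had r = 0.54, rho = 0.55 and r = 0.02 without m2 and m3 (within groups r = 0.70, exact permutation p = 0.098, adjusted 0.118). *Nfe2l2*, which encodes NRF2, had r = 0.34 and rho = 0.03. Over the 9 treated tumors alone, the within-group r was 0.82 for *Atf4*, 0.81 for *Trib3* and 0.77 for *Slc3a2*, and none of the 6 passed (smallest adjusted exact permutation p = 0.139).

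**Figure D3:**
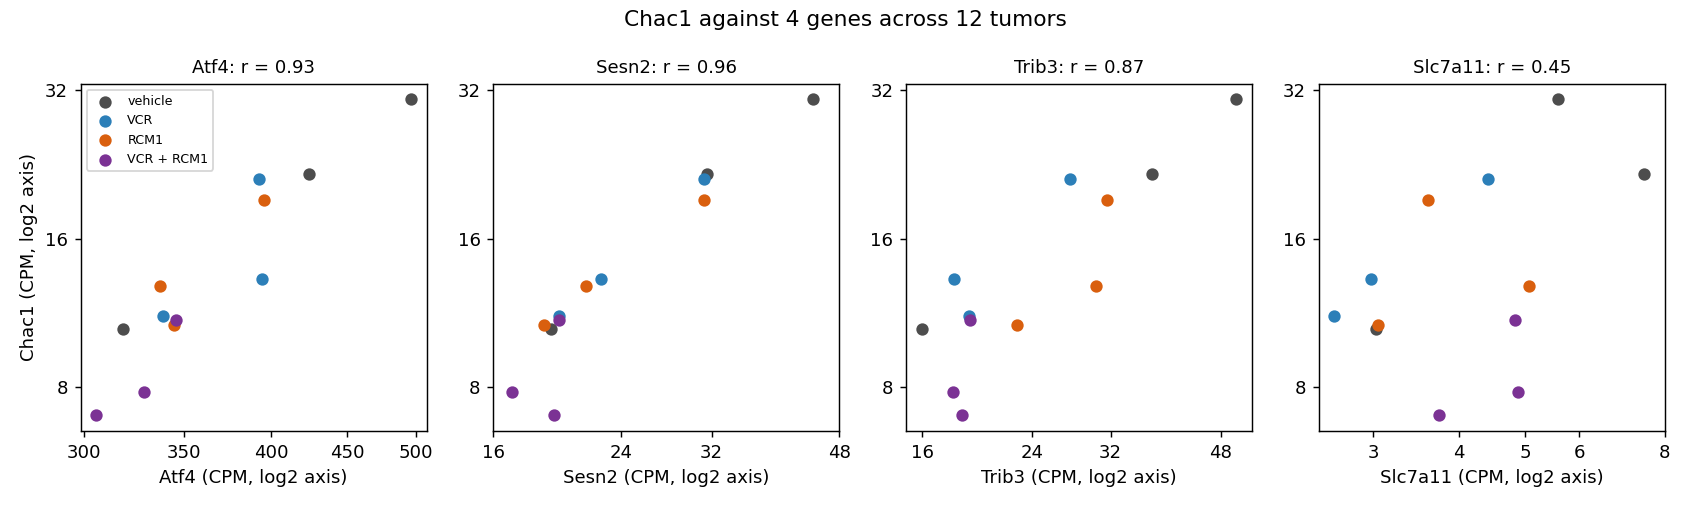
*Chac1* CPM is plotted against CPM of *Atf4*, *Sesn2*, *Trib3* and *Slc7a11*, each point 1 of 12 tumors colored by group, on log2 axes. The points rise together in the first 3 panels (r = 0.93, 0.96 and 0.87), the vehicle tumor m3 at the upper end, and scatter more widely for *Slc7a11* (r = 0.45).

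Among 14032 tested genes with a mean of at least 1 CPM, the 6 with the highest r with *Chac1* were *Sesn2* (0.96), *Atf4* (0.93), *Mamdc4* (0.91), *Tbpl1* (0.90), *Rcl1* (0.89) and *Tmem201* (0.88). They were chosen by that value, so no test is given. *Sesn2*, a stress-induced inhibitor of mTORC1 signaling, was at 19.2, 31.5 and 44.1 CPM with vehicle and 19.7, 17.0 and 19.4 CPM with both drugs, again with m1 inside the combination range. With group means subtracted, *Sesn2* had r = 0.95 (rank 4), *Tbpl1* 0.95 (rank 3) and *Atf4* 0.92 (rank 16).

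A list of ATF4 and 29 of its known targets lay above the bulk of genes in this measure. Its median r was 0.57 with 29 of 30 genes above 0, *Nupr1* being the exception, against a median of 0.02 and 52.3% above 0 over all 14032 genes. With group means subtracted the median was 0.74 and 28 of 30 genes were above 0, against 0.04 and 53.6% over all genes. Genes for cysteine and glutamate supply were nearly as high, at a median r of 0.56 with 8 of 9 above 0. With group means subtracted theirs was 0.70, 7 of 9 above 0. NRF2 and its targets had a median r of 0.21, 12 of 19 above 0, and the 9 other glutathione genes 0.11, 6 of 9 above 0. With group means subtracted these medians were 0.20, 14 of 19 above 0, and 0.39, 7 of 9 above 0. The 22 adult muscle fibre markers were all below 0, at a median of -0.43, and 2 of 11 leukocyte and 1 of 8 endothelial markers were above 0. With group means subtracted the muscle markers were again all below 0, at a median of -0.22. Leukocyte markers again had 2 of 11 above 0 and endothelial markers 0 of 8. The points share library depth and the normalization across genes, and the correlations across lists are descriptions. The lists are not separate, *Slc7a11* being in the ATF4 list, in the NRF2 list and among the 9 genes.

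**Figure D4:**
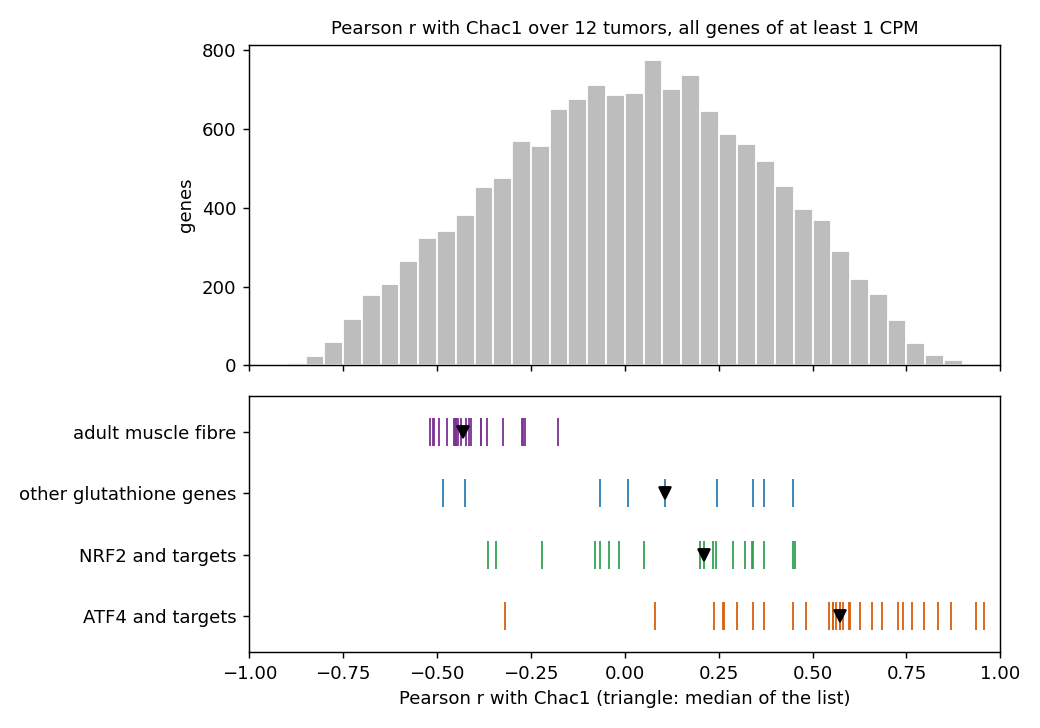
The upper panel counts genes by their Pearson r with *Chac1* over 12 tumors (bins of r on the x axis, number of genes on the y axis), and the lower panel marks each gene of 4 lists, with a triangle at the median. The ATF4 list lies to the right with a median of 0.57, the muscle fibre markers to the left with -0.43, and the other glutathione genes between, at 0.11.

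In group comparisons the ATF4 list was mostly below vehicle without any gene passing the test. Its median log2 fold change was -0.17 with VCR, -0.21 with RCM1-NPFA and -0.23 with both, with 27, 24 and 27 of the 30 genes below 0, against a median of all genes within 0.01 of 0. The 3 comparisons share the vehicle tumors, of which m2 and m3 were high in these genes. *Trib3* was at 16.0, 37.2 and 50.8 CPM with vehicle and 19.1, 17.9 and 18.5 CPM with both, a difference of -0.91 (SE 0.32, edgeR adjusted p = 0.668) that was -0.52 without m3. *Sesn2* differed by -0.76 (SE 0.28, edgeR adjusted p = 0.668) and by -0.44 without m3. Relative to VCR alone the combination had a list median of 0.00, 15 of 30 genes on either side. Relative to RCM1-NPFA alone the list median was -0.05, with 20 of 30 genes below 0. For the interaction it was 0.10, with 25 of 30 genes above 0.

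The wider glutathione genes held 2 that passed the test, both with VCR against vehicle, where 5.54% of all genes passed. *Gstt1*, a glutathione transferase, was at 12.9, 17.2 and 17.3 CPM with vehicle and 10.5, 7.71 and 8.12 CPM with VCR, and fell by 0.84 (SE 0.20) on the log2 scale, with an edgeR adjusted p of 0.077. *Glrx5*, a mitochondrial glutaredoxin of iron-sulfur cluster assembly, was at 62.5, 68.3 and 68.3 CPM with vehicle and 90.4, 99.9 and 82.4 CPM with VCR, and rose by 0.45 (SE 0.089, edgeR adjusted p = 0.068). The VCR and vehicle groups did not overlap for either gene, as for 24.4% of all genes. *Gstt1* was at -0.62 (SE 0.20, edgeR adjusted p = 0.419) with RCM1-NPFA and -0.78 (SE 0.20, adjusted p = 0.668) with both drugs. In the same order *Glrx5* was at 0.23 (SE 0.089, edgeR adjusted p = 0.437) and 0.20 (SE 0.089, adjusted p = 0.682). Those groups did not overlap vehicle either, as for 11.4% and 12.6% of all genes. Without m5 and m9 the VCR differences were -0.76 and 0.38, close to those in all tumors. The VCR tumors left, m4 and m6, still held 4838 and 2297 CPM of the 22 adult muscle markers, against at most 456 CPM with vehicle. The edgeR adjusted p rose to 0.129 and 0.123, above the threshold. Leaving out m2, m4, m5 or m11 alone also took both above it, with differences of -0.99 to -0.76 and 0.38 to 0.46, and leaving out m1 or m12 took one of them above it.

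Of 19 tested glutathione transferases *Gstt1* alone passed, and of 16 genes for redox recycling and NADPH *Glrx5* alone, 15 of the 16 being above 0 with VCR at a median of 0.13. As a share of either list, 1 gene is close to the 5.54% of all genes. None of the genes for glutathione breakdown outside the cell, for cysteine and glutamate supply, for peroxidases and peroxiredoxins, for NRF2 and its targets, or for ferroptosis passed in any comparison. Of the 10 tested peroxidases and peroxiredoxins, 8 were above 0 with VCR, at a median of 0.16. *Gpx7*, a peroxidase of the endoplasmic reticulum, was read at 0.471 to 3.84 CPM. With VCR it differed from vehicle by 1.41 (SE 0.46, edgeR adjusted p = 0.118). For the combination its difference of 0.88 (SE 0.46) had an edgeR adjusted p of 0.699, and *Prdx6*, a peroxiredoxin that uses glutathione, stood at 0.15 (SE 0.070, adjusted p = 0.692).

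Of the 8 tested genes for breakdown outside the cell, 7 were above 0 with the combination, at most at 0.60. *Cndp2*, which cleaves the cysteine-glycine dipeptide, had the smallest p, at 0.29 (SE 0.13, edgeR adjusted p = 0.682). *Dpep2*, a membrane dipeptidase, was at 0.26 (SE 0.17, edgeR adjusted p = 0.754). For supply, *Slc1a5*, a glutamine transporter, was at -0.22 (SE 0.16, edgeR adjusted p = 0.773). In the NRF2 list *Maff*, a small partner protein of NRF2, was at -0.33 (SE 0.17) and *Nfe2l2* itself at -0.16 (SE 0.090), with edgeR adjusted p of 0.697 and 0.724.

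Of 12 ferroptosis genes, 7 were above and 5 below 0 with the combination, at a median of 0.02. *Alox15*, a lipoxygenase that forms lipid peroxides, was at 7.59, 7.12 and 7.19 CPM with vehicle and 6.06, 4.76 and 5.16 CPM with both, a difference of -0.46 (SE 0.17). *Ptgs2*, the prostaglandin synthase often read as a ferroptosis marker, was at 12.9, 17.0 and 14.4 CPM with vehicle. It was at 8.01 to 11.3 CPM with both, a difference of -0.60 (SE 0.28). The vehicle and combination groups did not overlap for either gene, as for 12.6% of all genes, and the edgeR adjusted p was 0.668 and 0.692. With RCM1-NPFA alone *Ptgs2* was lower still, at 9.20, 3.61 and 7.52 CPM. That difference from vehicle was -1.12 (SE 0.29, edgeR adjusted p = 0.419).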

How the data were processed

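Poly-A RNA of 12 flank tumors was sequenced. Per the labels a stranded mRNA kit was used for libraries that they call non-stranded. Without strand, reads from a stretch shared by transcripts of overlapping genes cannot be told apart. The authors quantified reads with kallisto on GRCm38, and the deposited files give estimated counts, TPM and effective lengths per RefSeq transcript (version not given in the sources used here). Estimated counts and TPM were summed per gene over 120289 of 120299 transcripts that matched a RefSeq gene, and counts were rounded. edgeR 4.0.16 (R 4.3.3, TMM, filterByExpr with a minimum count of 10, quasi-likelihood F test, Benjamini-Hochberg over 17599 genes, threshold 0.1 as in the study) was fitted to all 12 tumors. The study's own tool, DESeq2 (1.42.0 here), limma-voom (3.58.1), other size factors, no filter, fits of single comparisons and leaving out each tumor were alternatives. CPM use TMM library sizes, and correlations were tested by 100000 permutations of all tumors and, in a test added after seeing the data and used for the p-values given, by all 1296 permutations within groups (216 for the 9 treated tumors). The edgeR fit was checked on simulated counts, for the combination against vehicle only.

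The genes, lists and tests were chosen with earlier results of these data known. Named were the 10 genes, the 6 most like *Chac1*, *Atf4*, *Ddit3*, *Trib3*, *Asns*, *Nfe2l2* and *Slc3a2*, and from each list the genes past the threshold or, failing that, the 2 with the smallest p in the combination. Nothing in the labels says whether tumors of a group came from separate cohorts, so p-values measure the spread between these tumors. Counts in the fits and CPM were not adjusted for effective length, while the deposited TPM are per length. Promoter sequences came from RefSeq (GRCm38).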

Additional observations from a re-analysis of the deposited data

How the results depend on the processing

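In all settings run, 0 of the 9 genes other than *Chac1* were called in any comparison and 0 of the 9 correlations with *Chac1* passed, by permutation over all 12 tumors or within groups, also when each tumor was left out in turn (0 to 0). Values near 0 changed sign in some settings, and the cause was not tested. With DESeq2 size factors the *Gclm* difference for RCM1-NPFA was -0.0026 on the log2 scale, and with no filter on low counts -0.0062. Without m5 and m9, a setting chosen after seeing the data, it was -0.025, that of *Oplah* for RCM1-NPFA -0.061, and those of *Ggct* and *Gclc* for VCR -0.043 and 0.0023. With the deposited TPM the r with *Chac1* was -0.24 for *Chac2*, -0.018 for *Oplah* and -0.066 for *Gclm*. Leaving out 1 tumor at a time gave log2 ranges of -0.16 to 0.22 (*Ggct*), -0.14 to 0.0088 (*Gclc*) for VCR, of -0.059 to 0.18 (*Oplah*) and -0.083 to 0.053 (*Gclm*) for RCM1-NPFA, and for the combination of -0.087 to 0.31 (*Ggct*), -0.11 to 0.040 (*Gclc*), -0.10 to 0.029 (*Gclm*), -0.10 to 0.056 (*Gpx4*) and -0.54 to 0.057 (*Slc7a11*). The r with *Chac1* ranged from -0.14 to 0.12 for *Chac2*, -0.19 to 0.18 for *Gsr*, -0.020 to 0.24 for *Oplah* and -0.058 to 0.47 for *Nfe2l2*, and stayed between 0.90 and 0.95 for *Atf4*. For *Chac1* the combination ranged from -1.61 without m1 to -0.90 without m3. The call count of all genes for VCR, 975 in edgeR, was 2197 in DESeq2, 648 with no filter, 465 when only VCR and vehicle were fitted and 253 without m5 and m9, and ran from 0 (m2, m4 or m5 left out) to 1998 (m6 left out) with 1 tumor fewer. No paired analysis was possible because the tumors carry numbers 1 to 12 once each, so the groups share none. *Slc7a11*, *Ggct* and *Oplah* rest on few reads, about 3 to 8 CPM at most, which limits their precision.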
